A study of Mus musculus with 6 samples.

Results

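The genes Gap43, Stmn2, Stmn3, Tubb3, Map1b, Sox11, Sprr1a, Klf6 and Klf7, all tied to the growth and regrowth of axons, were followed in retinas that had been damaged with NMDA and then given stem cell factor (SCF) or vehicle. They were chosen by name, and all 9 were found among the 25202 genes with a value above 0. Both groups were wild type C57BL/6 mice, given by the labels as 5 weeks old, that received NMDA, a glutamate receptor agonist, into the vitreous. After 2 days the NMDA + SCF group received recombinant SCF, the ligand of the receptor c-kit, and the NMDA + PBS group received PBS instead, and by the study's methods retinal RNA was taken a week later. There were 3 libraries in each group. The number of mice behind a library is not given in the sources used here, so p-values measure only the spread between these libraries, which may be technical. Retinas without NMDA were not analysed here.

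Axons grow by extending a growth cone, in which new microtubules are laid down behind a moving actin front. GAP-43 is a membrane protein of growth cones, the stathmins STMN2 and STMN3 bind tubulin and regulate microtubule turnover, TUBB3 is the neuronal β-tubulin and MAP1B binds microtubules in growing axons. SOX11, KLF6 and KLF7 are transcription factors known to promote axon growth in neurons, and SPRR1A, first known from the cornified envelope of squamous epithelia, is induced in injured peripheral neurons. In the retina the axons of the optic nerve belong to retinal ganglion cells, the cells that NMDA damages most. In whole-retina RNA, fewer cells of a type and less RNA per cell cannot be told apart.

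None of these genes passed the test between the groups (0 of 9 at an adjusted p of 0.05, limma with Benjamini-Hochberg adjustment over all genes, where 0% of all genes did). Klf7 was the only one of the 9 whose groups did not overlap, a pattern that 14.1% of all genes had in either direction. It stood at 3.63 ± 0.160 FPKM (SD, n = 3) in NMDA + SCF and at 6.03 ± 0.415 FPKM (SD, n = 3) in NMDA + PBS. Stmn3 and Tubb3, abundant neuronal genes, varied more among the NMDA + PBS libraries than between the group means. The values of Stmn2 and Map1b followed the list of transcripts that the authors had used for each file. FPKM scales counted fragments by transcript length and library depth, so that levels of different genes can be set side by side.

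That list divides the libraries. NMDA + PBS replicate 1 and the 3 NMDA + SCF libraries share a list of 54462 Ensembl transcripts, here called list A, and NMDA + PBS replicates 2 and 3 share a list of 55899, here called list B. Gene values were summed over the 46933 transcripts that both hold. Since both list B libraries are NMDA + PBS, list and group cannot be told apart except through NMDA + PBS replicate 1, and the difference from that single library, on the log2(FPKM + 1) scale and with no test, is given beside the results. The counted fragments recovered from the values were between 3404339 and 4440582 per library. Retinal ganglion cell markers were present in all libraries. Their summed level ran from 271.5 to 475.3 FPKM in NMDA + PBS and from 271.0 to 326.9 FPKM in NMDA + SCF, over 10 of 12 markers with a value. Markers of the lens were high in NMDA + SCF replicates 1 and 3, with sums of 5509 and 11946 FPKM, against 671.4 FPKM in replicate 2 and 26.6 to 344.9 FPKM in NMDA + PBS. Whether this has a part in any result was not tested.

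**Figure D1:**
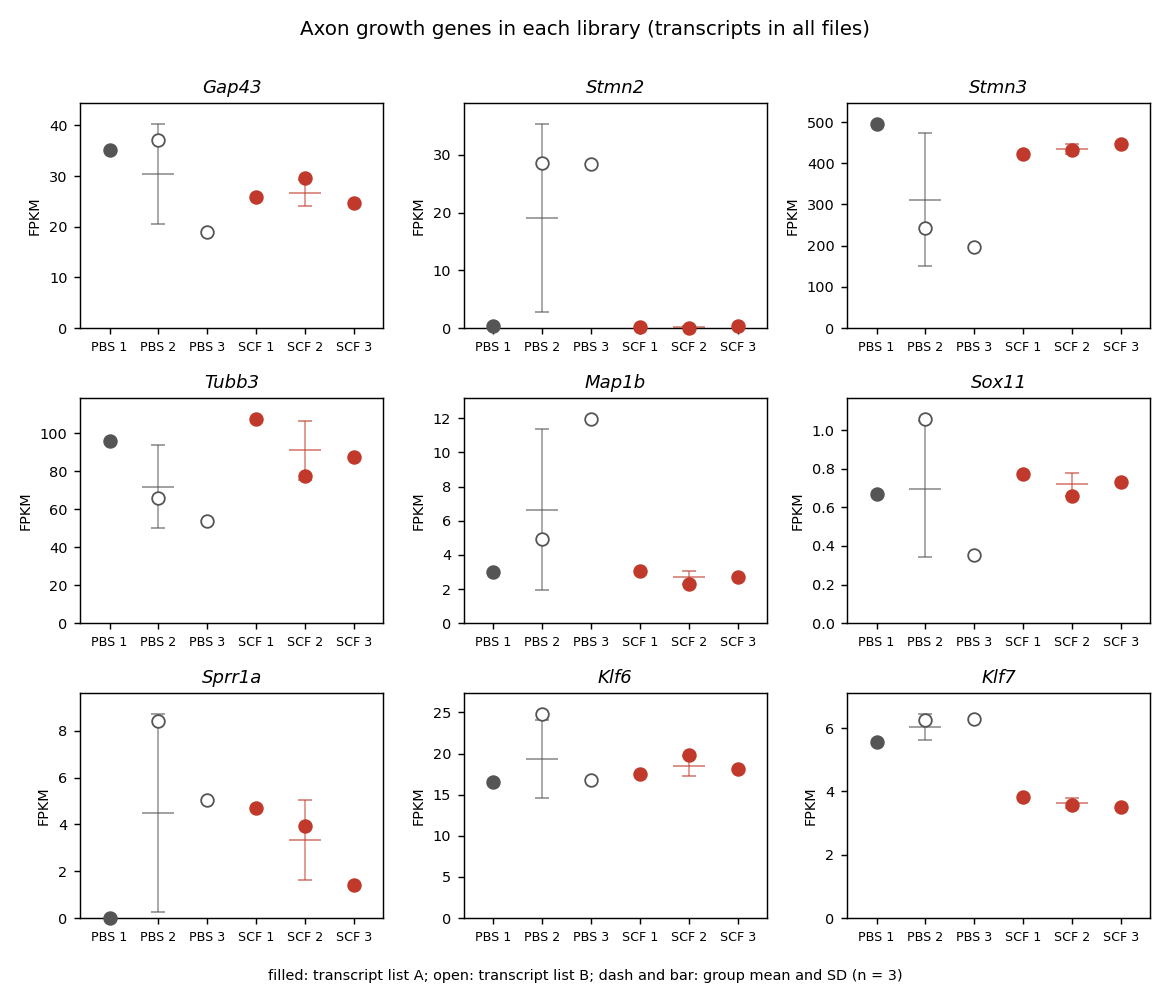
Level of each gene (vertical axis, FPKM summed over transcripts in all files, linear from 0) in the 3 NMDA + PBS (grey) and 3 NMDA + SCF (red) libraries, filled for list A and open for list B, with group mean and SD. Klf7 alone shows groups that do not overlap, as 14.1% of all genes do, and Stmn2 is high only in the 2 list B libraries.

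Klf7 lies on chromosome 1 of GRCm38 from 64029447 to 64122282, on the minus strand. In NMDA + PBS it stood at 5.55 FPKM in replicate 1, 6.26 in replicate 2 and 6.28 in replicate 3. In NMDA + SCF the same replicate numbers had 3.81, 3.56 and 3.51 FPKM. All 3 NMDA + SCF libraries were thus below all 3 NMDA + PBS libraries, a pattern that 6.45% of all genes shared (6.54% of those with a mean of at least 1 FPKM, and 14.1% in either direction). The mean was 1.66 times higher in NMDA + PBS. The log2 fold change on log2(FPKM + 1) was -0.60 (standard error 0.22, 95% interval -1.13 to -0.08, unadjusted p = 0.0299, adjusted p = 0.536, limma), and the exact two-sided permutation test gave p = 0.1, the smallest that 3 against 3 libraries allow. Against NMDA + PBS replicate 1 alone, which has the same transcript list as the treated libraries, the difference was -0.50. The sign was the same under all 14 alternatives, with values from -0.72 to -0.50.

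The difference lay mostly in a single transcript. The longest protein-coding form (ENSMUST00000114086) was counted with 131, 177 and 193 fragments in the NMDA + PBS libraries and with 100, 95 and 93 fragments in the NMDA + SCF libraries, in replicate order. The other 2 protein-coding forms had at most 4 fragments in any library and none in NMDA + SCF. Taken alone, the longest form gave a log2 fold change of -0.49 (unadjusted p = 0.0624, adjusted p = 0.591, limma over 45261 transcripts). Its 95% interval, -1.01 to 0.03, included 0, unlike that of the summed forms. Against NMDA + PBS replicate 1 alone its difference was -0.38. An antisense gene, Gm13748, overlaps Klf7 and had at most 1.55 FPKM. The strand of the libraries is not given in the sources used here, so fragments of both genes could be mixed.

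The stretch upstream of the longest form of Klf7 is shown because this gene alone separated the groups. A minor form (ENSMUST00000135075) starts further upstream, at 64122282, so the stretch lies inside the gene. It is the part of the RefSeq promoter window that no annotated exon overlaps (GRCm38.p6, chr1:64121492-64121639, minus strand), 5′ to 3′, with the GC box GGGCGG in capitals.
Klf7: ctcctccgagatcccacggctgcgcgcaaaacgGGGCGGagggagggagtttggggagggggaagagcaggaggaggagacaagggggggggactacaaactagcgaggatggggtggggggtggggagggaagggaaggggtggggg
Searched on both strands, GGGCGG occurred in 32.7% of 32851 promoter windows of 250 bases, and in 5 of the 7 windows found for these genes (Tubb3, Map1b, Sox11, Klf6 and Klf7, but not Stmn3 or Sprr1a). These windows can include exon bases, and the counts are a description of the letters only.

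Klf6, on chromosome 13 from 5861482 to 5870394, encodes a zinc finger factor related to KLF7. Its values were 16.5, 24.8 and 16.7 FPKM in the NMDA + PBS libraries and 17.5, 19.8 and 18.1 FPKM in the NMDA + SCF libraries. Replicate 2 of NMDA + PBS was the highest library and the groups overlapped. The log2 fold change was -0.04 (95% interval -0.54 to 0.46, adjusted p = 0.961, limma), and 0.15 against NMDA + PBS replicate 1 alone. The coding sequences of the pair share at most 26 bases in a row, shown here. Whether fragments of one were assigned to the other was not tested.
Klf6 and Klf7: gacaggtgtttctccaggtctgacca

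Sox11, on chromosome 12 from 27334264 to 27342574, was low, with 0.672, 1.06 and 0.352 FPKM in NMDA + PBS and 0.773, 0.657 and 0.731 FPKM in NMDA + SCF. These values rest on 13 to 35 fragments a library. The NMDA + SCF libraries lay inside the range of the NMDA + PBS libraries. Its log2 fold change was 0.04 (95% interval -0.56 to 0.64, adjusted p = 0.964, limma), a direction that turned with the scaling (-0.0022 under upper quartile scaling). Against NMDA + PBS replicate 1 alone the difference was 0.04. Within its coding part, Sox11 holds a run of 48 bases that Sox4, another SOX factor, also has.
Sox11 and Sox4: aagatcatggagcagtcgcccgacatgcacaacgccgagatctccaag

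Gap43 lies on chromosome 16, from 42248442 to 42340651. It had 35.2, 37.0 and 19.0 FPKM in the NMDA + PBS libraries. The NMDA + SCF libraries had 25.9, 29.5 and 24.6 FPKM and lay between the lowest and the highest of NMDA + PBS. The means were 30.4 ± 9.89 FPKM (SD, n = 3) and 26.7 ± 2.55 FPKM (SD, n = 3), with a log2 fold change of -0.13 (95% interval -0.77 to 0.51, adjusted p = 0.875, limma). All 3 NMDA + SCF libraries were below NMDA + PBS replicate 1, by 0.39 on average on the log2(FPKM + 1) scale. Without NMDA + PBS replicate 1 the difference was 0.0013, and without NMDA + PBS replicate 2 it was 0.037, so the sign turned with either library left out.

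Stmn3, on chromosome 2 from 181306459 to 181314500, was the most abundant of these genes. It stood at 495.7, 244.1 and 195.7 FPKM in NMDA + PBS and at 423.4, 431.8 and 447.2 FPKM in NMDA + SCF. The treated libraries were close to each other, and NMDA + PBS lay above them in replicate 1 and below them in replicates 2 and 3, the list B libraries. The log2 fold change of 0.59 (95% interval -0.21 to 1.40, adjusted p = 0.586, limma) became -0.19 against NMDA + PBS replicate 1 alone. Left without that replicate, the comparison called Stmn3 higher in NMDA + SCF (log2 fold change 0.99, adjusted p = 0.0401, limma), where list and group coincide and 3.37% of all genes were called.

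Tubb3, on chromosome 8 from 123411424 to 123422015, was also lowest in the list B libraries. Its NMDA + PBS libraries had 96.1, 65.7 and 53.6 FPKM, and its NMDA + SCF libraries 107.6, 77.5 and 87.8 FPKM. Replicate 1 of NMDA + PBS lay within the treated libraries, and replicates 2 and 3 below them. The log2 fold change was 0.37 (95% interval -0.23 to 0.96, adjusted p = 0.656, limma) with all libraries and -0.09 against NMDA + PBS replicate 1. A run of 47 coding bases is shared by Tubb3 and Tubb6. Whether fragments were split between these tubulins was not tested.

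Stmn2, on chromosome 3 from 8509360 to 8561606, was listed near 0 in 4 of the 6 libraries. In NMDA + PBS it had 0.283 FPKM in replicate 1, but 28.6 and 28.4 FPKM in replicates 2 and 3. In NMDA + SCF it had 0.141, 0.0842 and 0.424 FPKM. Every list A library, with or without SCF, had at most 5 fragments, and the 2 list B libraries had 238 and 264. The fitted log2 fold change of -3.10 (adjusted p = 0.536, limma) was -0.09 against NMDA + PBS replicate 1. Without NMDA + PBS replicate 1 it was -4.61 (adjusted p = 0.00177, limma), again with list and group coinciding. The protein-coding form (ENSMUST00000029002) made this pattern, with 2, 233 and 257 fragments in NMDA + PBS and 1, 0 and 0 in NMDA + SCF. Of 14013 genes with a mean of at least 1 FPKM, 250 (1.78%) had a list B value at least 10 times that of every list A library, and 147 had the reverse. This count was set up after the values of Stmn2 had been seen.

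Its paralog Stmn3 was at 423.4 FPKM or more in every list A library. The coding parts of Stmn2 and Stmn3 have 21 bases in a row in common at most, while Stmn2 and Stmn1 share a coding run of 43 bases. Both runs are printed here, and whether the value of one stathmin held fragments of another was not tested.
Stmn2 and Stmn3: gaggctcaggtgctgaagcag
Stmn2 and Stmn1: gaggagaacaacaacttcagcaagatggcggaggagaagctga

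Map1b, on chromosome 13 from 99421446 to 99516540, could be compared over its minor forms only. Its main protein-coding transcript (ENSMUST00000064762) is on list A and not on list B. In the 4 list A libraries it took 98.6 to 99.2% of the gene's FPKM. There it stood at 231.0 FPKM in NMDA + PBS replicate 1 and at 218.7, 267.2 and 204.9 FPKM in NMDA + SCF, so the single control lay within the treated libraries. The 5 forms on both lists summed to 3.01, 4.94 and 11.97 FPKM in NMDA + PBS and to 3.04, 2.30 and 2.73 FPKM in NMDA + SCF, with 7 to 72 fragments a library. Most of the 11.97 FPKM was a retained-intron form (ENSMUST00000223820), with 8.75 FPKM from 53 fragments. It had at most 1.69 FPKM in the other libraries. The log2 fold change of the 5 forms together was -0.88 (95% interval -1.91 to 0.15, adjusted p = 0.548, limma). Against NMDA + PBS replicate 1 alone it was -0.13. The sign turned to 3.15 when all listed transcripts were summed, since the main form then counts as 0 in list B. Under upper quartile and median-of-ratios scaling the groups of these minor forms did not overlap. There NMDA + PBS replicate 1 had 3.30 and 3.26 FPKM, and NMDA + SCF replicate 1 had 2.87 and 3.02 FPKM. A gene within the locus, 5330431K02Rik, was highest in the same library, at 9.75 FPKM in NMDA + PBS replicate 3 and at most 3.20 FPKM in the other libraries.

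**Figure D2:**
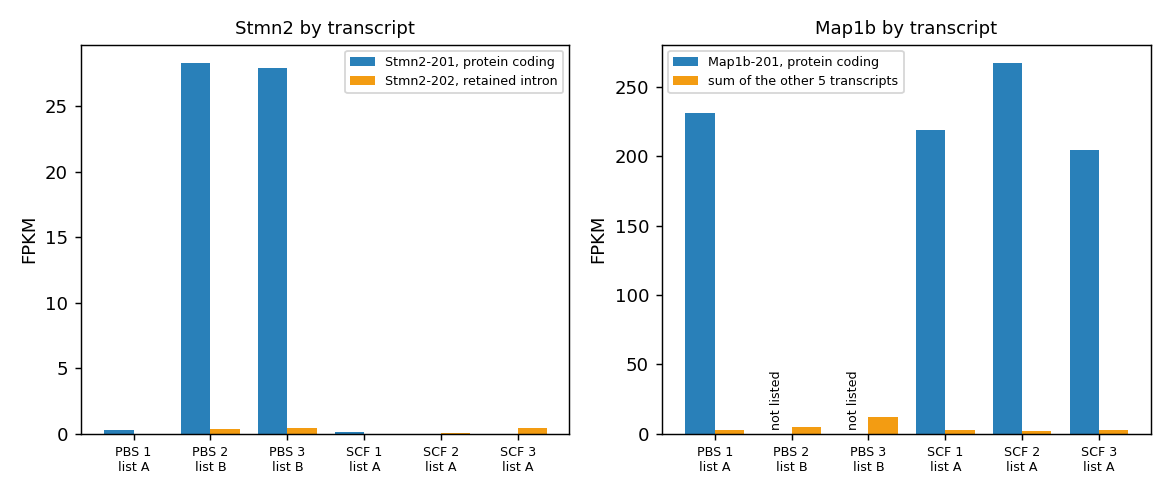
FPKM of single transcripts (vertical axis, linear from 0) in each library with its transcript list. The protein-coding form of Stmn2 is at most 0.283 FPKM in the 4 list A libraries and at 28.3 and 27.9 FPKM in list B, and the main form of Map1b has values in list A alone.

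Sprr1a, on chromosome 3 from 92483952 to 92485895, was low and scattered. It was listed at 0 in NMDA + PBS replicate 1, where 3 fragments would be 1.09 FPKM, and had 8.42 and 5.03 FPKM in replicates 2 and 3. The exact 95% Poisson interval for that count of 0 reached 3.69 fragments. The NMDA + SCF libraries had 4.71, 3.92 and 1.43 FPKM, from 13, 11 and 4 fragments. The groups overlapped and the log2 fold change was 0.09 (95% interval -1.85 to 2.02, adjusted p = 0.979, limma). It was 2.03 against NMDA + PBS replicate 1 alone and -0.88 without that library, and its sign also turned without NMDA + SCF replicate 1 (-0.15) or replicate 2 (-0.04). Markers of surface epithelium, where Sprr1a is also used, had summed levels of 23.5 to 60.7 FPKM in NMDA + PBS and 5.22 to 15.5 FPKM in NMDA + SCF. Of 10 such markers 7 had a value, and Ivl, Sprr1b and Trp63 had none. NMDA + PBS replicate 1, with Sprr1a at 0, had 28.3 FPKM of these markers, and their part in the Sprr1a values was not tested.

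The Sprr1a promoter is shown because it holds letters tied to injury signaling. It is printed 5′ to 3′ up to the first annotated exon (RefSeq, GRCm38.p6, chr3:92485896-92486131, minus strand), with TGAGTCA, the motif of the AP-1 dimers of Jun and Fos proteins, and TATAAA in capitals.
Sprr1a: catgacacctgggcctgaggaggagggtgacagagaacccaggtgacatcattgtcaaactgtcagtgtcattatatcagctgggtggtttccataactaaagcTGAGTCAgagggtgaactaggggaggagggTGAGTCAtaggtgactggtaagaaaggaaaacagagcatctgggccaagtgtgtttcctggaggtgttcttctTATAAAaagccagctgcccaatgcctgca
The pair of AP-1 motifs began 146 and 116 bases before the RefSeq start, which lies 14 bases inside that exon, and TATAAA 43 bases before it. On both strands, TGAGTCA was found in 4.46% of 32851 windows of 250 bases, with 2 or more matches in 0.167%. Among the 7 windows of these genes only that of Sprr1a held it. TATAAA was found in 12.4% of all windows, and here in those of Sprr1a and Map1b. Motifs were counted over whole windows, which can include exon bases. Before the first annotated exon lay 0 of the 250 bases for Map1b and 121 for Tubb3.

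Set side by side within list A, where the listed forms of all 9 genes can be summed, the genes kept clear ranks. Stmn3 (423.4 to 495.7 FPKM) was above Map1b (207.6 to 269.5), Tubb3 (77.5 to 107.6), Gap43 (24.6 to 35.2) and Klf6 (16.5 to 19.8), with no overlap between neighbours. Klf7 (3.51 to 5.55) was below Klf6 and overlapped with Sprr1a (0 to 4.71), which overlapped with Sox11 (0.657 to 0.773). Stmn2 (0.0842 to 0.424) was last. The growth cone and microtubule genes thus stood in the 4 upper ranks, except Stmn2, which stood in the lowest. That rank of Stmn2 holds for list A only, as the list B libraries had 28.6 and 28.4 FPKM.

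**Figure D3:**
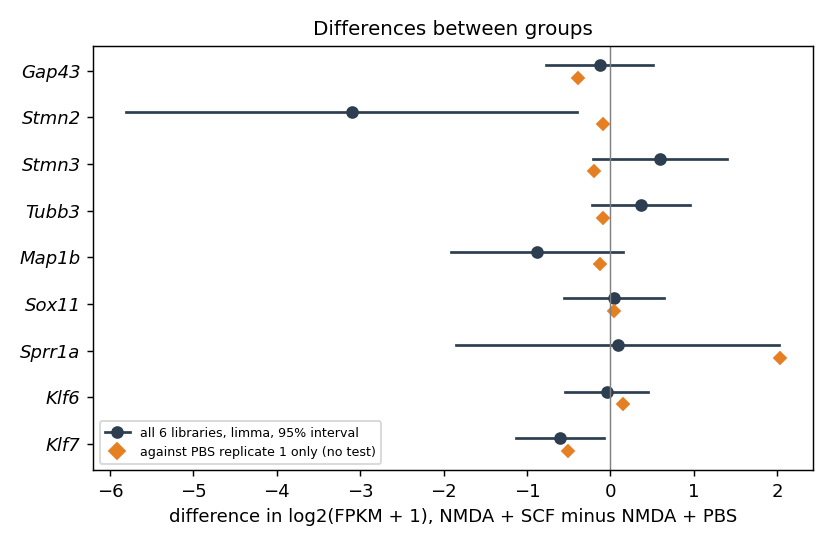
Difference in log2(FPKM + 1) between NMDA + SCF and NMDA + PBS for each gene, from limma on all 6 libraries with its 95% interval (circles) and against NMDA + PBS replicate 1 alone (diamonds, no test). Klf7, Gap43, Stmn2 and Map1b lie below 0 by both measures, while Stmn3, Tubb3 and Klf6 change sides.

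Over the 9 genes the median log2 fold change was -0.04, beside -0.01 over all genes tested, with 4 genes above 0 and 5 below, where 50.9% of all genes were below. Klf7 and Stmn2 had an unadjusted p under 0.05, both lower in NMDA + SCF, beside 4.9% of all genes lower and 9.22% in either direction. Voom on recovered fragments also called 0 of the 9 genes. Among 16 transcripts of these genes tested singly, 0 passed an adjusted p of 0.05, as 0% of all transcripts did, and 1 had an unadjusted p under 0.05 (the coding form of Stmn2), beside 7.98% of all. Groups did not overlap for 3 of them, the coding form of Stmn2, the longest of Klf7 and a minor coding form of Map1b (ENSMUST00000223725), all lower in NMDA + SCF, where 6.79% of all transcripts had that pattern. In the Stmn2 form NMDA + PBS replicate 1 had 2 fragments and NMDA + SCF replicate 1 had 1. In the Map1b form NMDA + PBS replicate 1 had 11 fragments and NMDA + SCF replicate 3 had 9. Both separations thus rest on few fragments. In list A, all NMDA + SCF libraries lay below NMDA + PBS replicate 1 for 3 of the 9 genes (Klf7, Gap43 and Stmn3), where 23.6% of all genes did, and above it for 2 (Klf6 and Sprr1a), where 23.8% did.

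Relative to the ganglion cell markers, each gene's log2(FPKM + 1) minus the mean of the 10 markers was higher in every NMDA + SCF library for Stmn3, Tubb3 and Sox11. Klf7 was lower in every one. The differences were 0.99, 0.77 and 0.44 for the first 3 and -0.20 for Klf7 (exact two-sided permutation test, p = 0.1 each, the smallest possible, with n = 3 a group). With this reference 39.5% of all genes had groups apart, 38.4% higher and 1.08% lower, so 3 of 9 genes on the higher side is near the background. With a pseudocount of 0.1 the groups were apart for Stmn3 and Tubb3 only. One of the 10 markers, Slc17a6, was at least 10 times higher in both list B libraries than in any list A library. Nefh was also higher there, at 55.5 and 41.4 FPKM in list B and 5.07 to 7.87 FPKM in list A. Sncg went the other way, at 85.3 and 45.5 FPKM in list B and 120.1 to 222.4 FPKM in list A. Nefh and Slc17a6 had log2 fold changes of -2.03 and -1.91, and the other markers lay between -0.35 and 0.49. The reference is subtracted from every gene alike. Without it the log2 fold changes were 0.59 for Stmn3, 0.37 for Tubb3, 0.04 for Sox11 and -0.60 for Klf7. For Sox11 the difference thus lay mostly in the reference. A reference without Nefh and Slc17a6 was not tried.

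Other genes of axon growth were read from lists by role. Of 69 such genes, 66 had a value and 0 passed an adjusted p of 0.05 in either direction (limma), with 3 higher and 6 lower at an unadjusted p of 0.05, beside 4.33% and 4.9% of all genes. Their median log2 fold change was -0.05. Growth cone and cytoskeleton genes had a median of 0.12, with 10 of 20 above 0. Tubulins were the highest of them. Tubb2b, a β-tubulin of developing neurons, had 10.6, 4.38 and 0.722 FPKM in NMDA + PBS and 10.4, 14.9 and 17.2 FPKM in NMDA + SCF (log2 fold change 1.65). For Tubb2a, a close relative, NMDA + PBS had 252.0, 107.6 and 89.2 FPKM and NMDA + SCF 286.4, 284.7 and 269.0 FPKM (log2 fold change 1.05). The α-tubulin Tuba1a had a log2 fold change of 0.83. Against NMDA + PBS replicate 1 alone the differences were 0.36 for Tubb2b, 0.15 for Tubb2a and 0.28 for Tuba1a. In Tubb2a and Tuba1a the groups did not overlap, while replicate 1 of NMDA + PBS was nearer to the treated libraries than replicate 3 was.

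At the lower end stood Dpysl2, the growth cone protein CRMP2, which had 7.86, 75.2 and 58.2 FPKM in NMDA + PBS and 5.29, 3.56 and 3.97 FPKM in NMDA + SCF (log2 fold change -2.71). The guidance receptors Nrp1 and Robo1 followed with -1.89 and -1.87, and both were at most 0.347 FPKM in every list A library and at least 5.70 FPKM in both list B libraries. Against NMDA + PBS replicate 1 alone the differences were -0.76 for Dpysl2, 0.04 for Nrp1 and -0.14 for Robo1. The study's enrichment table lists Dpysl2 as higher after SCF, the opposite direction. Values here cover only the transcripts on both lists. Whether a main form of these genes is missing from either list was not examined. Without NMDA + PBS replicate 1, where list and group coincide, 4 of the 66 genes passed an adjusted p of 0.05 (Dpysl2, Robo1 and Nrp1 lower, Tubb2a higher, limma), beside 3.37% of all genes, and this set was named after its values were seen. The injury and growth transcription factors had a median of 0.08 over 10 genes, and the injury kinases, growth brakes and axon survival genes one of -0.17 over 11. Axon adhesion and guidance genes had a median of -0.10 over 12 genes, and other injury-induced genes 0.24 over 6. Groups did not overlap for 8 genes higher and 7 lower among the 66, beside 7.63% and 6.45% of all genes.

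**Figure D4:**
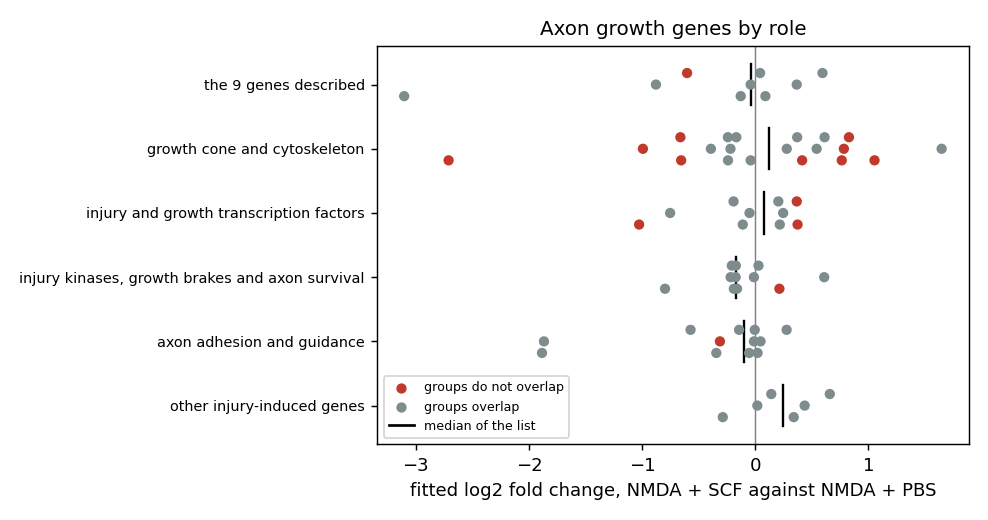
Fitted log2 fold change on log2(FPKM + 1) (horizontal axis) of each gene in a list (rows), with the list median as a bar and genes whose groups did not overlap in red. Growth cone genes reach from -2.71 for Dpysl2 to 1.65 for Tubb2b, and the 6 row medians lie between -0.17 and 0.24.

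The genes most like each of these in pattern were taken by Pearson r of log2(FPKM + 1) over the 6 libraries among the 14013 genes with a mean of at least 1 FPKM. Gap43 was most like Gm47015 (r = 0.995) and Mdk, which encodes the growth factor midkine (r = 0.981). Klf7 was most like Aff4 (r = 0.988) and Krt14 (r = 0.987), a keratin of surface epithelium. Stmn2 went with Zfp59 and Dld (r = 0.9999 and 0.999), Stmn3 with Denr and Imp3 (0.998 and 0.997), Tubb3 with Jag1 and Gm45231 (0.994 and 0.988), and Map1b with Cdv3 and Stard7 (0.994 and 0.993). The nearest to Sox11 were Gltp and Bard1 (0.994 and 0.987), to Klf6 Sema4a and Chadl (0.992 and 0.985), and to Sprr1a Arhgef12 and Ufsp2 (0.985 and 0.984). The points share libraries and transcript lists, and among so many genes high values of r arise from 6 points.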

How the data were processed

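Processed files of polyadenylated retinal RNA from 6 libraries, 3 a group, were used. The authors deposited FPKM values for single transcripts, without pooling replicates, and a table of read totals, with clean read counts of 44925938 to 48783182 per library, 97.1 to 97.6 percent of reads kept and 92.9 to 94.3 percent of bases at quality 30 or more per the file headers. The other 4 columns of that table were not used. The aligner and counter are not given in the sources used here. The submitters' processing notes name mm9, while 98.2% of 63313 Ensembl transcripts, and all 19 of the genes described, had the positions of GENCODE M21, so GRCm38 is used. Upstream sequences are RefSeq's, and the promoter table matched 7 of the 9 genes. Transcripts with assembly names (8.85 to 11.4% of summed FPKM) carry no gene name or position and were left out.

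FPKM was summed per gene over Ensembl transcripts in all files and tested as log2(FPKM + 1) with limma 3.58.1 (R 4.3.3, variance trend, condition only, Benjamini-Hochberg adjustment), with no filter except genes at 0 everywhere. The study's thresholds (fold of at least 2, adjusted p of at most 0.001) were also applied. FPKM times transcript length gave whole fragments, within 0.05 of a fragment or the file's rounding, for 99.95 to 99.96% of values above 0 in annotated transcripts. Depth, floors (3 fragments) and voom rest on these. Floors cover counting error only. The fit was tested on simulated data. Genes and lists were chosen with earlier results of these data known. Named from the axon growth lists were the 3 highest and 3 lowest log2 fold changes at a mean of at least 1 FPKM, and for likeness the 2 genes with the highest r. Map2, Dpysl3 and Crmp1 were named for their place in the study's enrichment table. The median of 1 list by role is not reported here. Shared runs, motifs and plots were made with Python 3.11.15. Alternatives were 2 other scalings, a pseudocount of 0.1, a filter, a replicate block, each library left out, all listed transcripts, the transcript list as a term and voom.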

Additional observations from a re-analysis of the deposited data

How the results depend on the processing

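Of the alternatives run, leaving out NMDA + PBS replicate 1 moved the calls most. With each library left out in turn, genes at an adjusted p of 0.05 ranged from 0 to 849, genes past the study's thresholds from 0 to 55, the 9 axon growth genes called from 0 to 2, other axon growth genes called from 0 to 4 and transcripts called from 0 to 1, and all counts above 0 came from the fit without NMDA + PBS replicate 1. In that fit list and group coincide. Under upper quartile and under median-of-ratios scaling, 2 of the 9 genes (Klf7, and Map1b over its minor forms) had groups apart, in place of 1. Unscaled, 14.1% of all genes had groups apart, and the share under these scalings was not counted. Relative to the ganglion cell markers, a pseudocount of 0.1 gave 2 genes without overlap in place of 4. The cause was not tested. Signs turned for Sox11 under upper quartile scaling (-0.0022), for Map1b with all listed transcripts (3.15, by construction) and, once a list term left only NMDA + PBS replicate 1 as control, for Stmn3 (-0.19), Tubb3 (-0.091) and Klf6 (0.15). With a library left out, log2 fold changes ran from -0.42 to 0.037 for Gap43, -0.14 to 0.14 for Klf6, -0.11 to 0.19 for Sox11 and -0.88 to 0.74 for Sprr1a. Sox11 has no value under the filter on a mean of at least 1 FPKM.

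Deviations of same-numbered libraries from their group means correlated at -0.05, -0.05 and -0.08. As the NMDA + PBS deviations include the difference between transcript lists, this cannot decide whether replicate numbers paired the libraries. With the replicate block 0 genes were called, as without it.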
